A study of Mus musculus with 6 samples.

Results

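The 10 genes described here encode receptors that restrain lymphocyte activation (Pdcd1, Lag3, Havcr2, Btla, Cd244, Cd200r1, Lair1 and Cd5) and enzymes that break down extracellular nucleotides (Entpd1 and Nt5e). They were chosen by name, with earlier results of these data known. The array holds 18 probe sets with these names, and its annotation names 18193 genes singly. Where a gene had several probe sets, the one brightest on average was used, by its log2 signals over the 6 arrays once values below a floor of 47.6 had been set to it. The floor is the 40th percentile of all signals, and a signal below it is treated as not above background. Cd244 is listed under its present symbol, Cd244a. The study asked what loss of Furin, a proprotein convertase that cleaves precursor proteins in the secretory pathway, does to CD4 T cells. The mice were C57BL/6 animals aged 10 to 11 weeks. Controls were Fur flox/flox, and the Furin-deficient animals were CD4 cre Fur flox/flox, called Furin cKO here, so every animal carried the floxed alleles and only the second genotype carried Cre. Cre driven by Cd4 sequences is active from the thymocyte stage on, and therefore also in cells of the CD8 lineage. From each genotype, naive CD4+CD62L+CD44- cells were stimulated for 2 days on plates coated with anti-CD3 and anti-CD28, each at 5 µg/ml, and are called activated cells. Memory cells (CD4+CD62L-CD44+) and regulatory cells (CD4+CD25+FoxP3+) were the other populations, with no culture named for them. There was 1 array for each combination of 3 populations and 2 genotypes, and whether an array held RNA of 1 animal or of several was not given in the sources used here.

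Inhibitory receptors set the threshold and the duration of T cell responses. Several of them, such as Pdcd1 (PD-1) and Btla, carry tyrosine motifs in their cytoplasmic tails that recruit the phosphatases Ptpn6 and Ptpn11, while others act through different adaptors. T cell receptor stimulation induces many of these receptors, which is why they mark both recent activation and chronic stimulation. The ectonucleotidases work in series: Entpd1 (CD39) converts extracellular ATP and ADP to AMP, and Nt5e (CD73) converts AMP to adenosine, which dampens T cells through the receptors Adora2a and Adora2b. In mice both enzymes are known from regulatory T cells.

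Some labels and array properties bear on every value below. Furin itself gave signals, control before Furin cKO, of 515.8 and 468.3 in activated, 647.4 and 2202.9 in memory and 547.2 and 410.0 in regulatory cells. The memory array labelled Furin cKO therefore held more Furin signal than its control, and where the probes lie relative to the deleted part was not known, so this checks neither label. Foxp3, the defining transcription factor of regulatory T cells, read 27.0 and 11.9 in activated, 1358.2 and 1116.4 in memory and 50.4 and 33.8 in regulatory cells. It thus went against the labels of the fresh populations, while Il2ra (1190.3 and 626.8 in memory, 4276.9 and 3702.1 in regulatory cells) and Ctla4 (3339.9 and 2934.0, then 11033.1 and 10619.1) went with them. Memory and regulatory are used below as the labels give them. In activated cells 49.4% and 49.8% of probe sets reached the floor, in memory cells 62.6% and 65.2%, and in regulatory cells 65.8% and 67.4%. The activated arrays also held the lowest signals of a spiked hybridisation control, 656.0 and 757.5 against 1808.5 to 4144.7 on the others. Population, culture and these array properties cannot be told apart. In bulk RNA, fewer cells of a type and less RNA per cell cannot be told apart either. No array held unstimulated naive cells. Where a gene is said below to rise or fall in activated cells, this is a difference from memory or regulatory cells. It is not a measured change from the naive state.

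The members fell into distinct patterns over the populations. Btla and Pdcd1 were highest in activated cells, Cd5 lay far above the floor and nearly level on all 6 arrays, and the other 7 genes were lowest in activated cells, 6 of them below the floor on at least 1 activated array. In all, 4 comparisons were fitted with limma on log2 signals: 3 between populations, and 1 between genotypes over the populations. The model had population and genotype as terms, and p-values were adjusted by Benjamini-Hochberg over the 15808 genes above the floor on at least 1 array. A call is an adjusted p under 0.05. With 1 array per group, these p-values measure how far the genotypes and populations fail to add up, not the spread between animals.

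**Figure D1:**
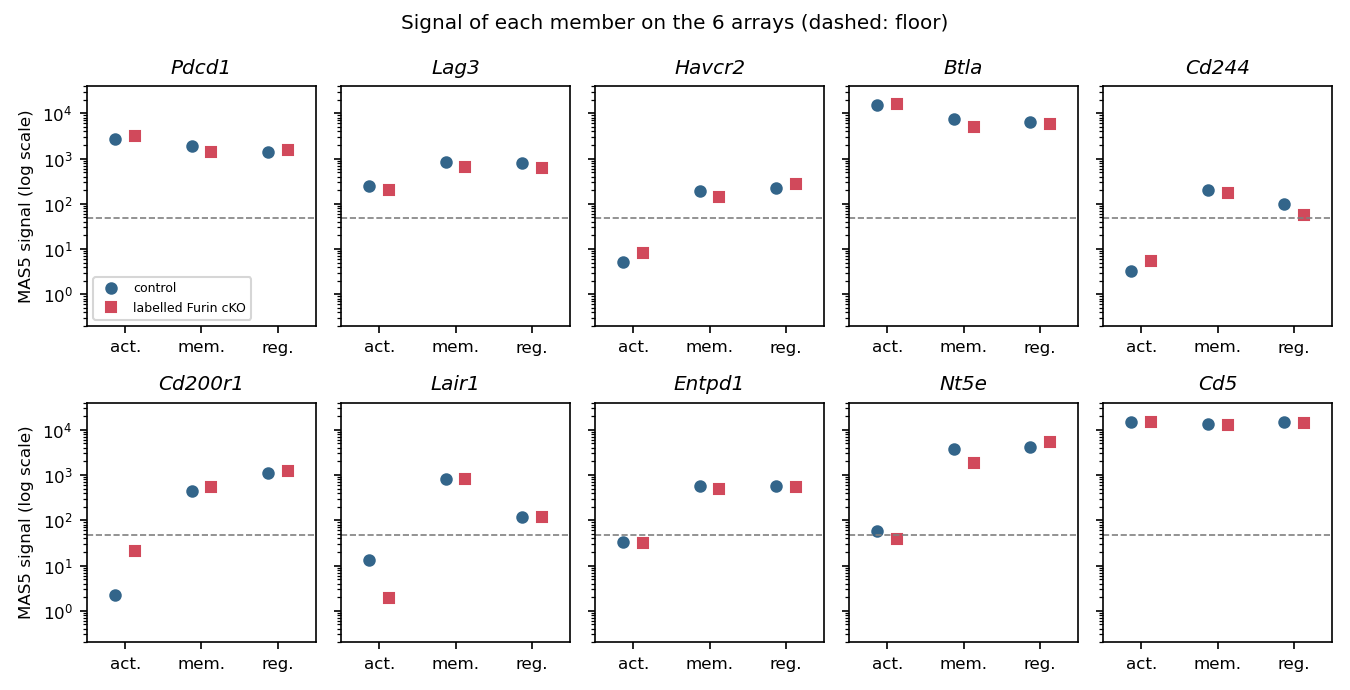
Signals of the 10 genes on the 6 arrays, on a logarithmic vertical axis in MAS5 units. Each panel is 1 gene, circles are control and squares Furin cKO arrays (1 per group), and the dashed line marks the floor of 47.6. Btla and Pdcd1 sit highest on the activated arrays, while Lair1, Cd200r1, Entpd1, Havcr2 and Cd244 lie below the floor there.

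The 250 bases before the annotated transcription start are shown for the 2 members called higher in activated cells (Btla, Pdcd1) and, beside them, for the 2 with the largest fitted falls against memory cells (Nt5e, Lair1). Sequences are from RefSeq on build GRCm38.p6 and run 5′ to 3′ in the direction of the gene. They cover chr16:45224087-45224336 (+ strand) for Btla, chr1:94052554-94052803 (- strand) for Pdcd1, chr9:88327359-88327608 (+ strand) for Nt5e and chr7:4063205-4063454 (- strand) for Lair1. Capitals mark matches, on either strand, to the letters TGANTCA (AP-1), GGAAA (NFAT), TGTGGT (RUNX) and AGGAAG (ETS), and matches of different motifs may share bases.
Btla: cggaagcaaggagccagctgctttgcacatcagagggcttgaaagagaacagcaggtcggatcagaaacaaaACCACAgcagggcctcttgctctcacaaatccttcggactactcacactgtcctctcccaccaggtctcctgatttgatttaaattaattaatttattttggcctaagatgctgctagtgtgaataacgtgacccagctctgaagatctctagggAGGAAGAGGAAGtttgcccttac
Pdcd1: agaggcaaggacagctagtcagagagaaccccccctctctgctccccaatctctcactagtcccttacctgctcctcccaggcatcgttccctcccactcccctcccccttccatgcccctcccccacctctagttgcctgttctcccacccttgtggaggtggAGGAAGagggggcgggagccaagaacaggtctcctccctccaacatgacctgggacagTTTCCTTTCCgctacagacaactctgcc
Nt5e: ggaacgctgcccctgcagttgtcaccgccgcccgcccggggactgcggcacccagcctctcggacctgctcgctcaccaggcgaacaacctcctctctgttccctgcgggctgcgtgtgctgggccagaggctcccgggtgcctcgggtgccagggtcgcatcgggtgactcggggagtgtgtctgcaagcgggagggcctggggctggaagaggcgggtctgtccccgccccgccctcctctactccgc
Lair1: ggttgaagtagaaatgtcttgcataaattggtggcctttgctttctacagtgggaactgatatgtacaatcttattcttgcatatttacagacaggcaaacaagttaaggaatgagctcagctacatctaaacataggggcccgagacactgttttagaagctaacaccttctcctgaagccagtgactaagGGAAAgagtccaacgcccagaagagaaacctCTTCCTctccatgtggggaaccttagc
The Btla window held 1 RUNX and 2 ETS matches, the Pdcd1 window 2 NFAT and 1 ETS match, the Lair1 window 1 NFAT and 1 ETS match, and the Nt5e window none. Over 32851 windows of this length, 6.75% held the AP-1 letters, 55.6% the NFAT letters, 14% the RUNX letters and 29.5% the ETS letters, so most of these matches are common. GC content was 72% in the Nt5e window, against 47.2% for Btla, 60.4% for Pdcd1 and 44% for Lair1. A match is a description of the letters and not of binding, and windows were found for 8 of the 10 members, Lag3 and Cd200r1 not being among them.

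Btla, the receptor for Tnfrsf14 (HVEM), gave 15271 in control and 16224 in Furin cKO activated cells. In memory cells it gave 7373 and 4864, and in regulatory cells 6426 and 5915, so every activated array lay above every fresh one. It rose 2.63-fold in activated against memory cells (log2 difference 1.39, SE 0.22, adjusted p 0.00988) and 2.55-fold against regulatory cells (1.35, adjusted p 0.0110). Pdcd1, the receptor for Cd274 and Pdcd1lg2, gave 2679 and 3130 in activated, 1935 and 1396 in memory and 1417 and 1509 in regulatory cells, again with the activated arrays apart. Its difference was smaller, at 1.76-fold over memory (log2 0.82, SE 0.22, adjusted p 0.0449) and 1.98-fold over regulatory cells (0.99, adjusted p 0.0273). The Pdcd1 call against memory cells was lost with the floor at the 20th percentile (adjusted p 0.0848), with quantile normalization (0.0874) and without the regulatory arrays (0.0507), and the call against regulatory cells with the lower floor (0.0556). Between memory and regulatory cells neither gene differed beyond the spread, with 95% intervals of the log2 difference of -0.55 to 0.63 for Btla and -0.77 to 0.44 for Pdcd1.

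Lag3, a CD4-like receptor for MHC class II, went the other way. It gave 241.5 and 200.3 in activated cells, against 827.9 and 646.8 in memory and 807.1 and 621.7 in regulatory cells. All 6 arrays were above the floor, and the activated arrays lay below all others. Lag3 fell 3.33-fold in activated against memory cells (log2 difference -1.73, SE 0.14, adjusted p 0.00241) and 3.22-fold against regulatory cells (-1.69, adjusted p 0.00270). The fresh populations differed by -0.05 (95% interval -0.41 to 0.32).

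Havcr2 (TIM-3), a receptor of terminally differentiated and chronically stimulated T cells that myeloid cells also express, was not above background in activated cells. It gave 5.3 and 8.3 in activated cells, both below the floor, 189.3 and 141.6 in memory and 219.2 and 270.7 in regulatory cells. It was at least 3.44-fold lower in activated than in memory cells (adjusted p 0.00573) and at least 5.12-fold lower than in regulatory cells (adjusted p 0.00340). With the floor at the 60th percentile, 144.8, the difference from memory cells was no longer called (adjusted p 0.444). For any gene below the floor on both activated arrays, those arrays take the same value, so the standard error there rests partly on values that were not measured.

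Cd244, a receptor for Cd48 of the SLAM family found on natural killer cells, myeloid cells and some T cells, was highest in memory cells. Its signals were 3.3 and 5.4 in activated, 200.3 and 170.0 in memory and 101.3 and 57.9 in regulatory cells. The fall in activated against memory cells was at least 3.88-fold (adjusted p 0.00568), but was not called with the floor at 144.8 (adjusted p 0.0714). Against regulatory cells the bound of 1.61-fold was not called (adjusted p 0.0854), although it was with the lower floor (log2 -2.53, adjusted p 0.0123). A second Cd244 probe set read 3.0 and 2.7, then 183.9 and 79.9, then 64.3 and 53.2 over the same arrays, with the same order of populations.

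Cd200r1, the receptor for the membrane protein Cd200, separated all 3 populations. It gave 2.2 and 21.0 in activated, 445.6 and 556.4 in memory and 1112 and 1198 in regulatory cells, with no overlap between any pair of populations. The fall in activated cells was at least 10.5-fold against memory (adjusted p 0.00183) and at least 24.2-fold against regulatory cells (adjusted p 0.00175). Lair1, a collagen receptor of many leukocytes, gave 13.4 and 1.9 in activated, 797.5 and 826.4 in memory and 116.6 and 115.5 in regulatory cells, also with no overlap. It fell at least 17.1-fold against memory cells (adjusted p 0.00167) and at least 2.44-fold against regulatory cells (adjusted p 0.00412), though with the floor at 144.8 the latter could not be measured. Within memory and within regulatory cells the paired Lair1 arrays differed by only 0.05 and -0.01 on the log2 scale.

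The ectonucleotidases were also lower in activated cells. Entpd1 gave 32.3 and 31.2 in activated cells, below the floor, against 580.5 and 496.3 in memory and 581.5 and 531.6 in regulatory cells. It fell at least 11.3-fold against memory (adjusted p 0.00181) and at least 11.7-fold against regulatory cells (adjusted p 0.00175), and its fresh populations overlapped. Nt5e gave 56.6 and 38.5 in activated cells, the first above and the second below the floor. Its memory signals were 3670 and 1868 and its regulatory signals 4059 and 5464. The fall was at least 50.4-fold against memory (log2 -5.66, SE 0.37, adjusted p 0.00203) and at least 90.7-fold against regulatory cells (-6.50, adjusted p 0.00199). With all probe sets averaged, these were -2.998 and -3.58 for Nt5e, and -2.23 and -2.57 for Entpd1. On the control arrays alone, where both sides were measured, Nt5e was 64.8-fold and 71.7-fold lower in activated cells. Cd5, which tunes T cell receptor signalling from the thymus on, gave 14649 and 15094 in activated, 13125 and 12432 in memory and 15196 and 14213 in regulatory cells. Its differences of activated from fresh cells were not called (0.22 against memory, 95% interval -0.15 to 0.59; 0.02 against regulatory, -0.36 to 0.39), except under quantile normalization against memory cells (0.82, adjusted p 0.0116).

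Counted together, 2 of the 10 members were called higher and 7 lower in activated than in memory cells, beside 17.4% of all genes called higher and 27% called lower. Against regulatory cells 2 were called higher and 6 lower, beside 18.1% and 26.5%. The members' median log2 difference was -1.87 against memory and -1.49 against regulatory cells, where all genes had medians of -0.21 and -0.23. These comparisons share the activated arrays. Havcr2, Cd244, Cd200r1, Lair1 and Entpd1 were below the floor on both activated arrays. They entered the fit through the fresh arrays and could only come out lower in activated cells. The members were also chosen with earlier results of these data known, so the counts beside all genes are not a test. Of all calls, 39.1% were higher in activated than in memory cells, against 51.4% under quantile normalization and 52.3% under cyclic loess. The split against regulatory cells was 40.6%, 55.2% and 56.2% in the same order. The number of members called stayed between 7 and 9 under each alternative in both comparisons.

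**Figure D2:**
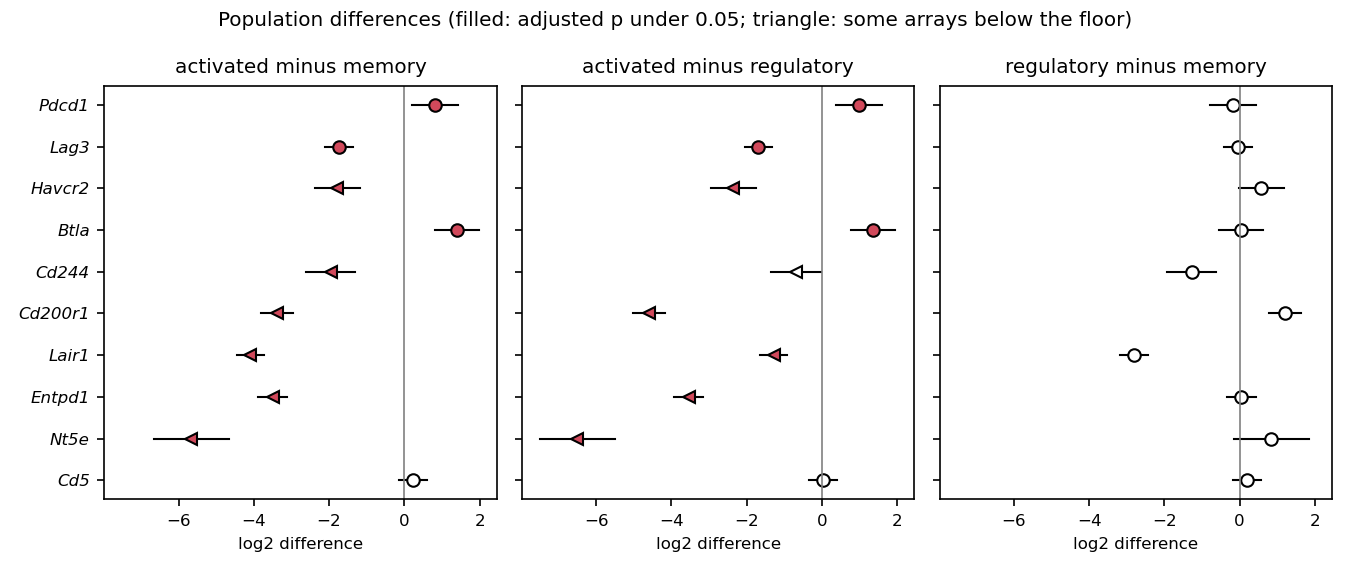
Log2 differences between populations for the 10 genes, with 95% confidence intervals from limma over 6 arrays on the horizontal axis. Filled symbols have an adjusted p under 0.05, and triangles are lower bounds on the size, where an activated array lay below the floor. Btla and Pdcd1 lie right of 0 against both fresh populations, Cd5 lies near 0, and the other 7 lie left of 0.

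Among the fresh cells, Lair1 was higher in memory cells and Cd200r1 in regulatory cells, but no gene passed the test. Lair1 was 7.0-fold lower in regulatory cells (log2 difference -2.81, SE 0.13, 95% interval -3.17 to -2.44), by 6.84-fold on the control arrays and 7.16-fold on the Furin cKO arrays. By the Lair1 probe set that an average without the floor would choose, the difference was -2.17 (adjusted p 0.0675). The adjusted p of 0.0506 was the smallest of all 15808 genes, shared with Foxp3, which was at least 25.1-fold lower in regulatory cells, against the labels. Both genes were below the floor on both activated arrays, so their standard errors rest partly on unmeasured values here too. Without the activated arrays the limma adjusted p of Lair1 was 0.0643. Of the 15808 genes 0% were called higher and 0% lower, and 3358 (21.2%) had an unadjusted p under 0.05, 3 of the members among them. Cd200r1 was 2.32-fold higher in regulatory cells (1.21, SE 0.15, adjusted p 0.0726) and Cd244 2.41-fold lower (-1.27, SE 0.24, adjusted p 0.0982). Lair1 and Cd200r1 were called with the floor at 144.8, with a floor set for each array, and with population alone in the model, and Lair1 also with the mean of its probe sets. Havcr2 (log2 0.57, adjusted p 0.249) and Nt5e (0.85, adjusted p 0.289) were not called, Nt5e being 1.11-fold higher in regulatory cells on the control arrays and 2.93-fold on the Furin cKO arrays. The other 5 genes differed by at most 0.20 on the log2 scale.

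Signals of other cell types moved with the same comparisons. Of 17 listed myeloid and dendritic markers 16 had a probe set, and their summed signal was 3592 and 3763 in activated, 80594 and 42592 in memory and 14001 and 14506 in regulatory cells. Between 14 and 16 of them were above the floor on the fresh arrays and 6 to 8 on the activated ones. Siglech, of plasmacytoid dendritic cells, gave 5.8 and 4.5, then 2943 and 1111, then 66.3 and 95.3. Tyrobp, an adaptor of myeloid and natural killer cells, gave 23.9 and 6.5, then 6299 and 2680, then 287.3 and 350.8, the same order of populations as Lair1 and Cd244. Most of the list had this order, but Itgam and Adgre1 did not, nor did Fcgr3 and Cd14 on the control arrays. The 9 of 11 B cell markers with a probe set summed to 2625 and 2548 in activated, 15800 and 13680 in memory and 18706 and 16318 in regulatory cells. Granulocyte markers (6 of 7) had none above the floor in activated cells and sums of 2026 and 7905 in memory and 1452 and 2913 in regulatory cells. Natural killer markers (3 of 6) summed to 30.8 and 29.5, then 392.2 and 690.2, then 206.6 and 195.1. Plasma cell markers summed to 4267 and 4246, then 12411 and 25337, then 23810 and 15635, CD8 markers to 155.3 and 202.8, then 1070.2 and 697.0, then 934.2 and 896.3, and erythroid markers to 10.6 and 28.6, then 483.9 and 157.4, then 156.4 and 51.7. The part of these cells in the differences of Lair1, Cd244, Havcr2, Cd200r1 and the ectonucleotidases was not tested. T cell markers (5 of 7) were also lower in activated cells, at 18754 and 18353, against 69663 to 85568 on the fresh arrays.

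**Figure D3:**
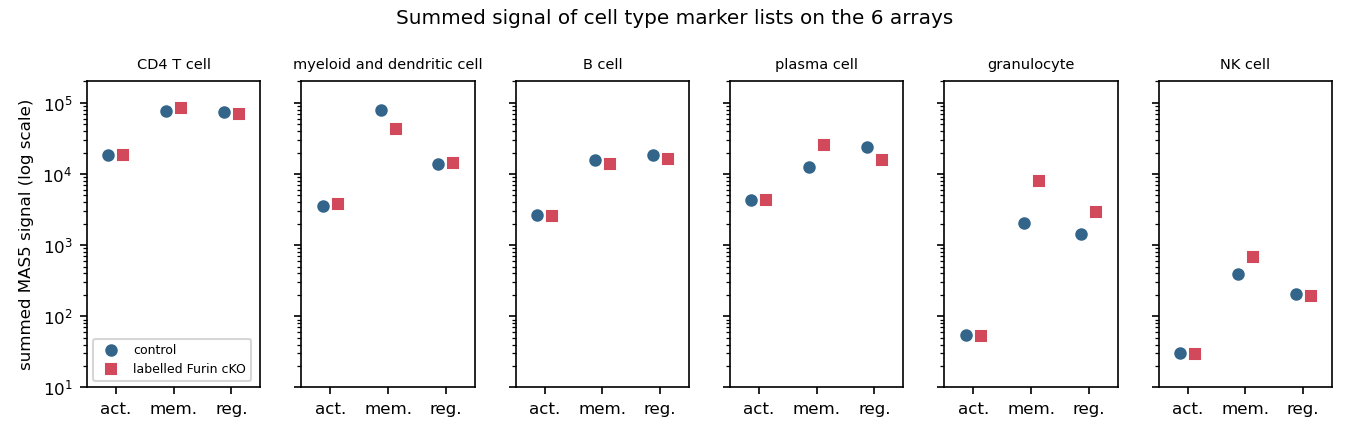
Summed signals of the marker lists on the 6 arrays, on a logarithmic axis in MAS5 units, with circles for control and squares for Furin cKO arrays (1 per group). Myeloid and dendritic markers stand highest in memory cells, at 80594 (control) and 42592 (Furin cKO), and lowest in activated cells.

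Between genotypes no member differed 2-fold in any population by the probe set used, while the second Cd244 probe set was beyond 2-fold in memory cells (183.9 to 79.9, log2 -1.20). In activated cells 5 members could be measured, and their log2 differences, Furin cKO over control, ran from -0.27 for Lag3 to 0.22 for Pdcd1. Btla differed by 0.09 and Cd5 by 0.04, and Nt5e was at least 1.19-fold lower. Against these, the scaled median absolute deviation of all 10756 measured genes was 0.21, so only Lag3, Pdcd1 and Nt5e lay beyond it. None of the 5 was 2-fold higher or lower, beside 0.39% and 0.372% of all genes. These are differences between single arrays and have no replicate check.

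In memory cells 8 of the 10 members were lower and 2 higher on the Furin cKO array, while 50.7% of all 14235 measured genes were lower. The members' median log2 difference was -0.30 against -0.01 for all genes, and the scaled deviation of all genes was 0.47. Nt5e had the largest difference, 1.96-fold lower (3670 to 1868, log2 -0.97), and 90.2% of measured genes had a smaller one. Btla followed, 1.52-fold lower (-0.60), then Pdcd1 at 1.39-fold (-0.47), Havcr2 at 1.34-fold (-0.42) and Lag3 at 1.28-fold (-0.36). Cd244 (-0.24, but -1.20 by its second probe set), Entpd1 (-0.23, but -0.66 and 0.17 by its others) and Cd5 (-0.08) differed less. Cd200r1 (0.32) and Lair1 (0.05) were the higher ones, but Lair1 was lower by its other probe sets (-0.48 and -0.16). The split of directions thus depended on the probe set. Of the 10, 0 were 2-fold higher or lower, beside 5.62% and 3.64% of all genes. This pair had the widest spread of the 3 and the Furin signal that went against its label. The summed signal of myeloid and dendritic markers was lower on its Furin cKO array (80594 to 42592). The sums of granulocyte (2026 to 7905) and plasma cell markers (12411 to 25337) were higher. Against their sums went Lyz2, Itgam and Fcgr3 of the first list, Mmp9 of the second, and Sdc1 and Xbp1 of the third. The ratio of 3′ to 5′ beta-actin signal was 1.93 and 1.56 on this pair, against 1.22 to 1.36 on the other arrays. The part of these in the members' differences was not tested. With all probe sets of a gene averaged, the Nt5e difference was -0.41 and that of Cd244 -0.72.

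In regulatory cells 6 members were lower and 4 higher, with a median of -0.06 beside -0.02 for all 14587 measured genes and a scaled deviation of 0.33. Cd244 had the largest difference, 1.75-fold lower (101.3 to 57.9, log2 -0.81), larger than that of 90.7% of measured genes. Its second probe set differed by -0.27. Nt5e was 1.35-fold higher (0.43), Lag3 1.3-fold lower (-0.38) and Havcr2 1.23-fold higher (0.30), and by the probe sets used the other 6 lay within 0.13 of no change. Other probe sets differed more in regulatory cells, Entpd1 by -0.81 and Lair1 by 0.33. Of the 10, 0 were 2-fold higher or lower, beside 3.14% and 2.12% of all genes.

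**Figure D4:**
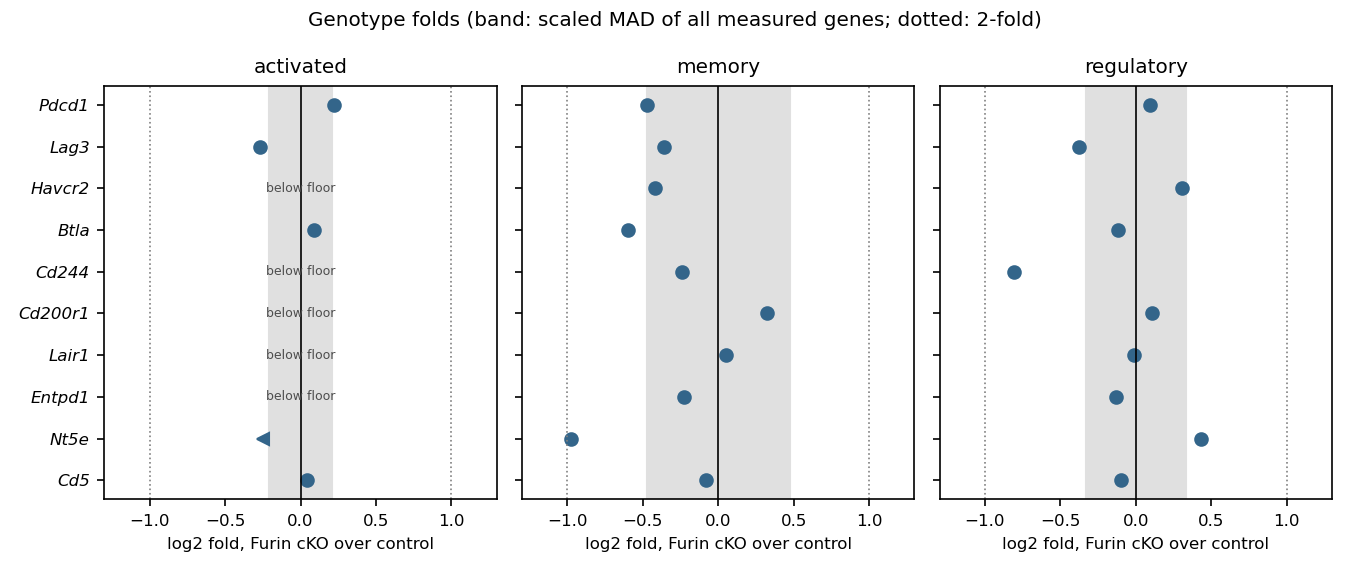
Log2 difference of each gene, Furin cKO over control, in the 3 populations, 1 array per group. The shaded band is the scaled median absolute deviation of all measured genes (0.21, 0.47 and 0.33), the dotted lines mark 2-fold, and the triangle is a lower bound. Lag3 lies below 0 in all 3 populations, and Nt5e lies below in memory and above in regulatory cells.

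Lag3 was the only member lower on the Furin cKO array of all 3 populations with both arrays measured in each. Over the populations its log2 difference was -0.33 (SE 0.11, 95% interval -0.63 to -0.03), with an unadjusted p of 0.0361 and an adjusted p of 0.820. The differences in single populations, -0.27, -0.36 and -0.38, lay beyond the scaled deviation in activated and regulatory cells and within it in memory cells. No member and no gene of 15808 was called for genotype (0% higher, 0% lower), while 450 genes (2.85%) and 1 member, Lag3, had an unadjusted p under 0.05. The intervals of the other members ran from -1.08 to 0.55 for Nt5e, the widest, to -0.28 to 0.31 for Lair1. Lair1, Havcr2, Cd244, Cd200r1 and Entpd1 were below the floor on both activated arrays, which the fit took as no genotype difference there. Their estimates and intervals, the narrow one of Lair1 among them, depend on this.

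Genes with several probe sets allowed a check within the same arrays. Lair1 read 20.8 and 20.4 in activated, 656.9 and 470.7 in memory and 109.8 and 138.4 in regulatory cells by a second probe set, and 1.0 and 6.5, then 252.3 and 225.3, then 33.4 and 8.8 by 1 more. All 3 were highest in memory cells, whereas the genotype difference of Lair1 in memory cells was 0.05 by the first and -0.48 by the second. Nt5e read 9.6 and 9.1, then 564.6 and 440.0, then 835.5 and 982.1 by a second probe set, again lower on the memory (-0.36) and higher on the regulatory (0.23) Furin cKO array. The other Nt5e probe set stayed near the floor, between 15.3 and 55.2, and gave no pattern. Entpd1 read 0.4 and 5.6, then 226.0 and 143.5, then 292.3 and 253.2 by a second and 0.7 and 1.7, then 109.5 and 123.0, then 198.8 and 113.7 by 1 more, below the floor in activated cells by each. Cd200r1 read 24.9 and 16.7, then 84.3 and 142.0, then 147.7 and 142.5 by a second probe set, on which the fresh populations lay closer together and 1 pair was level.

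**Figure D5:**
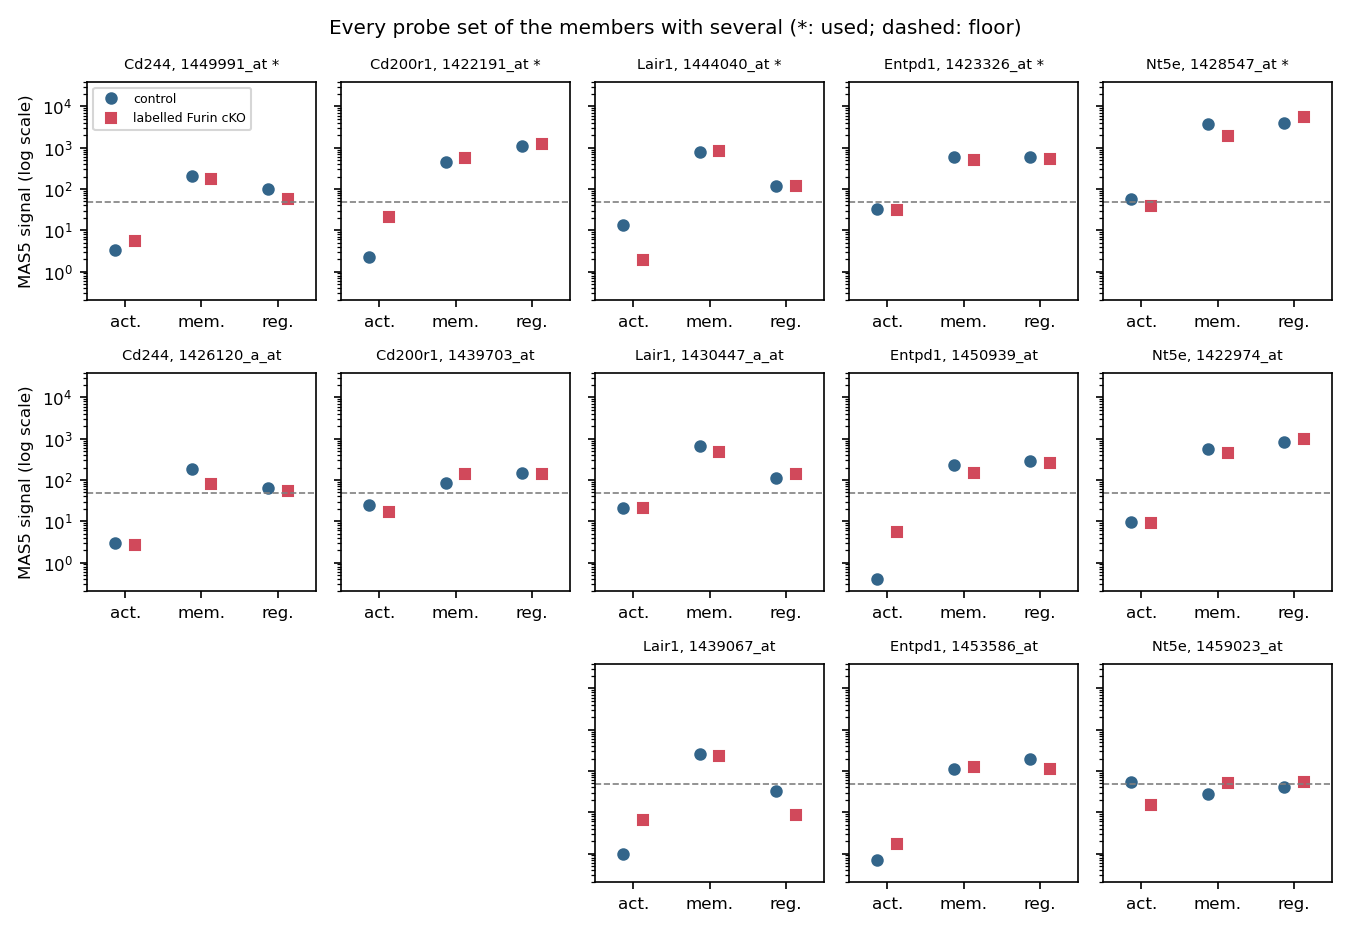
Signals of every probe set of the 5 members with more than 1, on a logarithmic axis in MAS5 units, with circles for control and squares for Furin cKO arrays (1 per group), an asterisk for the probe set used, and the floor of 47.6 as a dashed line. Levels of different probe sets cannot be compared with each other, only their course over the arrays. This course is lowest in activated cells, except for a dim Nt5e probe set and a Lair1 probe set below the floor in regulatory cells too.

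The ligands of these receptors were split between the populations. Of 10 listed ligands and counter-receptors 9 had a probe set and 8 could be tested, with 3 called higher and 4 lower in activated than in memory cells, beside 17.4% and 27% of all genes, at a median of -1.12 (all genes -0.21). Cd200, the ligand of Cd200r1, gave 10457 and 9224 in activated, 1571 and 888.5 in memory and 1272 and 1370 in regulatory cells, so it stood high where its receptor was below the floor. It rose 8.31-fold against memory cells (adjusted p 0.00283), and Cd274 (PD-L1), a ligand of Pdcd1, rose 3.4-fold (adjusted p 0.00233). Cd48, the ligand of Cd244, fell 3.54-fold (adjusted p 0.00553) and Lgals9, a ligand of Havcr2, 2.62-fold (adjusted p 0.00460). Against regulatory cells again 3 were called higher and 4 lower (all genes 18.1% and 26.5%). In Furin cKO memory cells 2 of 8 were at least 2-fold higher, beside 5.62% of all genes: Tnfrsf14, the Btla ligand, went from 25.1 to 154.7 (at least 3.25-fold), and Lgals3, a galectin abundant in macrophages that also binds Lag3, from 926.9 to 2015 (2.17-fold). None passed 2-fold in activated cells (all genes 0.39% higher and 0.372% lower) or in regulatory cells (3.14% and 2.12%).

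Of proteins that carry the inhibitory signal, each of the 17 listed could be tested. In activated cells 1 was called higher and 12 lower against memory (median -1.03), beside 17.4% and 27% of all genes, and 3 higher and 12 lower against regulatory cells (median -0.97), beside 18.1% and 26.5%. Inpp5d (SHIP1), an inositol phosphatase, fell 4.14-fold and Csk, the kinase that restrains Src family kinases, 3.34-fold against memory cells. Against regulatory cells the phosphatases Ptpn6 (2.47-fold) and Ptpn11 (2.66-fold) rose, while against memory cells neither was called (adjusted p 0.0531 and 0.0901). None differed 2-fold between genotypes in any population. Of all genes, 0.39% were 2-fold higher and 0.372% lower in activated, 5.62% and 3.64% in memory, and 3.14% and 2.12% in regulatory cells. Of 13 other inhibitory receptors 9 had a probe set, with 1 called higher and 6 lower against memory cells (median -2.46) and 0 and 4 against regulatory cells (median -0.64), set against the same shares of all genes (17.4% and 27%, then 18.1% and 26.5%). Ctla4, which competes with Cd28 for its ligands, was the gene called higher, 3.54-fold in activated against memory cells. Activated and regulatory cells were level for Ctla4 (1.02-fold, adjusted p 0.902). Klrg1 had the largest fall of the list against memory cells, at least 73.3-fold (adjusted p 0.00194). Between genotypes Cd300a, a receptor of myeloid cells and lymphocytes, went from 404.1 to 199.3 in memory cells (2.03-fold lower, as 3.64% of all genes were by 2-fold), and Siglecg, known from B cells, from 18.7 to 115.4 in regulatory cells (at least 2.42-fold higher, as 3.14% were by 2-fold).

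Of 21 listed genes of adenosine and extracellular nucleotide handling, 14 had a probe set, with 3 called higher and 4 lower in activated than in memory cells (median -0.53), near the 17.4% and 27% of all genes. P2rx7, an ion channel gated by extracellular ATP, gave 190.8 and 171.2 in activated, 5324 and 7165 in memory and 4382 and 4647 in regulatory cells. Its fall of 34.2-fold against memory cells (adjusted p 0.00181) ran beside those of Entpd1 and Nt5e, with no overlap between activated and fresh arrays. The higher genes were Adk and Pnp, which use up adenosine and inosine inside the cell (3.01-fold and 2.17-fold), and the nucleoside transporter Slc29a1 (1.58-fold). Against regulatory cells 1 was called higher and 4 lower (all genes 18.1% and 26.5%). Other members of the Entpd family passed 2-fold between genotypes, as 5.62% of all genes did upward in memory and 3.14% in regulatory cells: Entpd2 went from 23.5 to 191.8 in memory cells (at least 4.03-fold higher) and Entpd3 from 15.5 to 104.2 in regulatory cells (at least 2.19-fold higher), the latter below the upper floor of 144.8 on both arrays. Of 15 listed transcription factors that act on inhibitory receptor genes 14 could be tested, with 4 called higher and 9 lower against memory cells (all genes 17.4% and 27%), and 5 and 6 against regulatory cells (18.1% and 26.5%). Irf4 (8.27-fold), Nr4a1 (5.07-fold) and Nr4a3 (12.0-fold), all induced by T cell receptor signalling, rose against memory cells, while Tox2 fell 62.3-fold (86.1 and 66.4 in activated, 4132 and 5375 in memory cells) and Tox 3.96-fold. Between genotypes 1 of them passed 2-fold, Nr4a2 in memory cells (124.5 to 43.1, at least 2.62-fold lower, beside 3.64% of all genes). No gene of the 5 lists was called between regulatory and memory cells, and the list genes named for their differences between populations were chosen after their values were seen, as were Siglecg, Entpd3 and Nr4a2.

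For each member, the gene with the most similar course was the one with the smallest root mean square log2 distance after each gene's mean was removed, over 6 arrays and 15808 genes. The distance was 0.04 for Cd5 (Mphosph8), 0.05 for Pdcd1 (Aldh18a1) and Cd244 (Rcn3), 0.06 for Btla (Aasdh) and Entpd1 (Ypel3), and 0.07 for Lag3 (Ubxn6) and Havcr2 (Ddhd1). Lair1 (Ctla2b, 0.13), Cd200r1 (Itgb8, 0.19) and Nt5e (A630023P12Rik, 0.22) had no gene as close. Such a distance also depends on how large a gene's differences are. By Pearson correlation with its nearest gene, Cd5 was lowest (0.976), and the other members ran from 0.994 (Pdcd1) to 0.9998 (Entpd1).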

How the data were processed

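Total RNA was hybridised to Affymetrix arrays, from 5 µg each per the labels' protocols. The deposited values are intensities on a linear scale from MAS5, per the submitters' processing notes, with a 2% trimmed mean of 500 on every array. The genome build behind the probe sets was not given in the sources used here. Of 45037 probe sets without controls, 34945 had 1 gene symbol, 932 several and 9160 none in the platform annotation, and only the first were used. Signals below 47.6 were set to it and log2 was taken. Fold changes within a population compare 1 array with 1 array. Population and genotype were fitted with limma 3.58.1 in R 4.3.3 (2 residual degrees of freedom, prior 2.24), with Benjamini-Hochberg adjustment, after the script was tested on simulated data. List genes were named between genotypes where at least 2-fold with the brighter array reaching 144.8, the 60th percentile, at most 3 per list and population. The members and lists were chosen with earlier results of these data known. Alternatives were other floors, normalizations, probe set rules and models, and the probe set by log2(signal + 1), a floor for each array and fits without the third population were added after seeing the data. Protein sequences of the members were not analysed here. The number of arrays limits the precision.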

Additional observations from a re-analysis of the deposited data

Results flagged for a closer look

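Nt5e differed in opposite directions between genotypes in memory and regulatory cells. Its log2 difference, Furin cKO over control, was -0.97 in memory cells and 0.43 in regulatory cells, each beyond the scaled median absolute deviation of its pair, and -0.25 in activated cells, where it is a lower bound on its size. A second Nt5e probe set differed by -0.36 and 0.23 in memory and regulatory cells, within the scaled deviations of 0.47 and 0.33. With all probe sets averaged, the differences were -0.41 and 0.29, also within these deviations. The remaining Nt5e probe set, near the floor, was higher on the Furin cKO array in memory and regulatory cells (at least 0.11 and 0.20). The difference between populations was not tested, since each value rests on 1 array per genotype.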

How the results depend on the processing

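With 1 array per group and no replicate numbers, every genotype change rests on a single pair. Samples could not be paired by replicate number, and the genotype fit compares the arrays within each population. Members called in regulatory against memory cells numbered 2 with the 60th percentile floor, 2 with a floor for each array, 2 with population alone and 1 with probe sets averaged, and all genes called numbered 448, 215, 655 and 21 in the same order. With a floor for each array, 11172 genes were called in activated against memory and 11260 against regulatory cells, beside 7013 and 7063. Under quantile normalization 1 member, Nt5e, was 2-fold lower in memory cells (-1.0). Directions reversed under cyclic loess for Entpd1 in regulatory against memory cells (-0.0317), Cd5 in activated against regulatory cells (-0.0743) and Lair1 for genotype over the populations (-0.0333), and for the latter with probe sets averaged (-0.0303), with the probe set chosen by log2(signal + 1) (-0.049) and without the memory arrays (-0.0068). Without the memory arrays, Pdcd1 (0.16), Havcr2 (0.15) and Nt5e (0.0895) also turned positive for genotype. Falls of members below the floor are bounds that move with it, and their order too: against memory cells the log2 differences of Lair1 and Nt5e were -4.09 and -5.66, -5.93 and -5.81 with the 20th percentile floor, and -3.32 and -2.998 with probe sets averaged. The median of all genes in activated against memory cells was -0.21, -0.47 with the 20th percentile floor, -0.77 with a floor for each array and 0.00 under quantile normalization. Counts of 2-fold genes moved with the floor: with the 20th and 60th percentile, higher and lower genes numbered 471, 442, 17 and 9 in activated (main 42 and 40), 2197, 1511, 258 and 221 in memory (800 and 518) and 1738, 1450, 39 and 39 in regulatory cells (458 and 309).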
